A study of Mus musculus with 12 samples.

Results

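The genes described here are 10 mouse genes that the transcription factor p53 is known to induce: Btg2, Mdm2, Ccng1, Aen, Bax, Bbc3, Trp53inp1, Sesn2, Phlda3 and Eda2r. They were picked by gene symbol from a kidney RNA sequencing table of 45777 genes. Each of the 10 symbols had 1 row, and all 10 passed the filter on low counts. The table holds 12 libraries from wild-type male C57BL/6 mice in 4 groups of 3. No cisplatin, vesicles or intravenous injection are described for the normal mice. The other 3 groups received intraperitoneal cisplatin, a platinum drug that crosslinks DNA, as 5 weekly injections of 9 mg/kg. Intravenous injections then followed, 5 in all and 3 days apart. They held saline in the PBS group, and iMSC-EVs, extracellular vesicles from cells that the labels abbreviate as iMSC, at 200 µg in the EV200 group or 400 µg in the EV400 group. Kidneys were taken 3 days after the last injection. The effects of cisplatin and of the injections therefore cannot be told apart in a comparison with normal mice. The labels call the libraries biological replicates without saying that each came from its own mouse, so p-values measure only the spread between these samples.

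DNA damage activates kinases that stabilise p53, which then binds DNA and raises transcription of genes for cell cycle arrest, cell death, DNA repair and metabolism. One of its targets, Mdm2, encodes the ubiquitin ligase that marks p53 for degradation and so closes a feedback loop. In the kidney, p53 is known to be activated in tubule cells after cisplatin and to take part in their death in mice.

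Each library held 46.6 to 62.1 M counts, and no pair of libraries was identical. The first principal component of log2 CPM (counts per M of library size, scaled by TMM factors) carried 43.4% of the variance. EV200 replicate 3 lay at 60.5 on it against -18.7 and -8.59 for the other EV200 libraries. EV400 replicate 3 lay at -52.1 against 1.06 and 7.93 for its group, and PBS replicate 2 lay at 83.4 against 15.4 and 42.8. PBS replicate 3 held adipocyte transcripts, with Adipoq at 7.67 CPM and at most 0.124 CPM elsewhere. Kidney epithelial markers were abundant in every library, with a summed level of 9570 to 14755 CPM over Lrp2, Cubn, Slc34a1, Umod, Slc12a1, Slc12a3, Aqp2 and Nphs1. In PBS against normal 1 of these 8 was called higher and 1 lower, beside 1.84% and 0.902% of all genes. Means of Lrp2, Cubn and Slc34a1 were lower in PBS than in normal, and those of the other 5 were higher. Because these are bulk samples, fewer cells of a type and less RNA per cell cannot be told apart.

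Per transcript length, the members spanned a wide range of levels. Ccng1, which encodes cyclin G1, was the most abundant, at a mean of 108 TPM (the authors' values, which correct for transcript length and sum to the same total in each library) over the 12 libraries. Bax, the gene of a pore-forming protein of the mitochondrial death pathway, averaged 46.8 TPM, Mdm2 averaged 26.6 TPM and the stress-induced sestrin gene Sesn2 averaged 22.8 TPM. Trp53inp1, whose product promotes p53-dependent death and autophagy, averaged 16.6 TPM. The antiproliferative gene Btg2 averaged 8.35 TPM and Aen, which encodes a nuclease linked to apoptosis, averaged 7.95 TPM. Lowest were Phlda3, an inhibitor of AKT signalling, at 4.12 TPM, Bbc3, which encodes the BH3-only death protein PUMA, at 1.92 TPM, and Eda2r, a receptor of the TNF receptor family, at 0.260 TPM. Most neighbours kept this order in all 12 libraries. The exceptions were Mdm2, above Sesn2 in 9 libraries, Sesn2, above Trp53inp1 in 11, and Btg2, above Aen in 5, so Btg2 and Aen could not be ordered.

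The low members rest on few reads. Eda2r had 19 to 128 counts per library and Bbc3 had 49 to 187, whereas Ccng1 had 9007 to 16239. Exons of 9 members overlapped no other gene in GENCODE vM21. In Bax, 192 exonic bases, or 12.2%, were shared with the protein-coding gene model Gm45808 on the same strand, so reads there could have been counted for either.

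The promoter sequences of 9 members were found in a RefSeq table of GRCm38.p6, as 12 windows reaching 250 bases upstream and 50 bases into the gene. Each was searched for the consensus p53 response element of 20 bases, taken without a spacer and with its 4 core C and G positions fixed. That element is its own reverse complement, so 1 search covers both strands. Some of the best matches are printed because they show how differently these windows match that consensus. Capitals mark the 20 bases matched.
Ccng1: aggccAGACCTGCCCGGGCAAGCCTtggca
Aen: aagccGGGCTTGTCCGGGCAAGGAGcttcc
Bbc3: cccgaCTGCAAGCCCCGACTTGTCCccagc
Btg2: ctgggAGGCGCGGGCGAGCTGGCGGgcggg
The Ccng1 stretch lies at chr11:40755457-40755486 on the minus strand, its element from -195 to -176 relative to the start, and has 1 mismatch. A match that close occurred in 0.067% of 32851 mouse promoter windows. The Aen stretch lies at chr7:78895932-78895961 on the plus strand, with the element from 11 to 30 relative to the first listed start and from -121 to -102 relative to the second, and has 3 mismatches. Bbc3 has 3 mismatches as well, at chr7:16309481-16309510 on the plus strand, from -97 to -78 relative to its first listed start. At most 3 mismatches occurred in 1.38% of all windows. The best Btg2 stretch, at chr1:134079264-134079293 on the minus strand, has 7 mismatches, which 39.5% of windows match or better. Among the rest, Phlda3 had 5 mismatches, Bax 7, and Sesn2, Mdm2 and Eda2r 9 each. A match describes letters only, and elements outside these windows were not searched.

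Comparing PBS-treated with normal mice asks what the drug course left in the kidney. Btg2 was the member called higher, at 1.81-fold. It was the 1 member of 10 called at an adjusted p under 0.05, where 2.74% of the 18730 genes tested were called, 1.84% higher (345 genes) and 0.902% lower (169 genes). No member fell. At an unadjusted p under 0.05, 3 of 10 were higher and none lower, where 17% of all genes were higher and 12.8% lower by that measure. The members' median log2 fold change was 0.22, against 0.00 for all genes, and 7 of 10 lay above 0, as did 50.3% of all genes. With library totals in place of TMM factors the calls split into 463 higher and 78 lower genes, 85.6% against 67.1% higher. The median of all genes then moved to 0.17 and that of the members to 0.39.

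**Figure D1:**
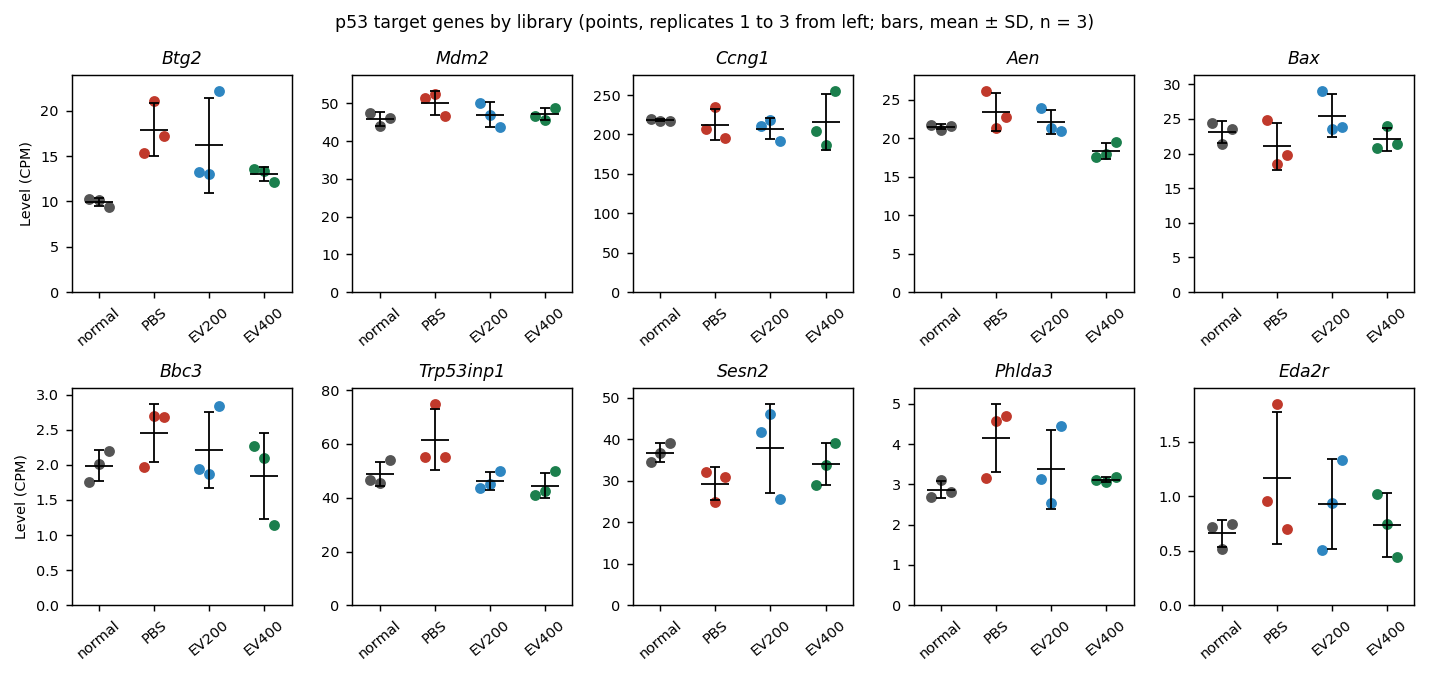
Level in CPM of each of the 10 p53 target genes (vertical axis, from 0) in the 4 groups (horizontal axis); points are libraries and bars are mean ± SD, n = 3. All PBS libraries exceed the normal ones for Btg2 (15.4 to 21.1 against 9.36 to 10.2 CPM), whereas the groups overlap for Mdm2 and Ccng1.

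Btg2, which restrains cell division and is induced by p53 and by other stimuli, read 10.2, 10.1 and 9.36 CPM in normal kidneys and 15.4, 21.1 and 17.2 CPM in the PBS group. The groups did not overlap, and PBS replicate 2 was highest. Mean levels were 9.91 ± 0.475 and 17.9 ± 2.92 CPM (SD, n = 3), a log2 fold change of 0.85 (SE 0.19; edgeR quasi-likelihood test, Benjamini-Hochberg adjusted p = 0.0461). DESeq2 gave an adjusted p of 0.00101 and called 2855 of the 18730 genes tested. The edgeR call did not hold when any normal library was left out (adjusted p = 0.136, 0.158 and 0.149 without replicates 1, 2 and 3), nor without PBS replicate 2 (0.151) or 3 (0.0695), EV200 replicate 2 (0.0525), or EV400 replicate 1 (0.0693) or 2 (0.0623). The log2 fold change stayed between 0.73 and 0.95 as each library was left out. The count of genes called moved by more than 1.5 times with each of the 12, from 0 without any 1 normal library to 2405 without EV200 replicate 3.

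Phlda3 and Trp53inp1 were the other members with every PBS library above every normal one. In normal kidneys Phlda3 read 2.69, 3.10 and 2.80 CPM, and in the PBS group 3.17, 4.56 and 4.70 CPM. PBS replicate 1 lay just above the normal range and the other PBS libraries well above it. Its log2 fold change was 0.54 (SE 0.21; edgeR, Benjamini-Hochberg adjusted p = 0.124). With quality weights limma-voom called Phlda3 (adjusted p = 0.00565), beside 6164 of the 18730 genes tested. Trp53inp1 read 46.8, 45.7 and 54.0 CPM in normal kidneys and 55.0, 74.9 and 55.0 CPM after cisplatin and PBS. Replicate 2 stood far above the others, and both remaining PBS libraries lay next to normal replicate 3. Its log2 fold change of 0.34 (SE 0.13) had an adjusted p of 0.113 in edgeR with Benjamini-Hochberg adjustment, and was 0.18 without PBS replicate 2.

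Neither member of the feedback arm was called. Mdm2 read 47.5, 44.0 and 46.1 CPM in normal kidneys and 51.4, 52.6 and 46.6 CPM in the PBS group. The groups overlapped at PBS replicate 3, and the log2 fold change of 0.13 had a 95% interval of -0.04 to 0.30 (edgeR, Benjamini-Hochberg adjusted p = 0.264). Ccng1, whose product is known to recruit a phosphatase that acts on Mdm2, read 219, 217 and 218 CPM and then 207, 234 and 196 CPM. PBS libraries lay on both sides of the tight normal range. For Ccng1 the log2 fold change was -0.04 with an interval of -0.29 to 0.21 (edgeR, Benjamini-Hochberg adjusted p = 0.85), and it was 0.13 with library totals in place of TMM factors. In the authors' TPM values the log2 ratio of PBS to normal means was 0.35 for Mdm2 and 0.16 for Ccng1. The median over genes at 1 TPM or more in every group was 0.15, and these ratios were not tested. Ccng1 had the closest match to the p53 element among the promoter windows searched, and Btg2 and Mdm2 were among those with distant ones. Whether these matches bear on the levels was not tested.

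Among the death genes none was called. Bax read 24.5, 21.4 and 23.5 CPM in normal kidneys and 24.9, 18.4 and 19.8 CPM in the PBS group. The groups overlapped, with the lowest values in PBS replicates 2 and 3, and the log2 fold change was -0.14 (interval -0.41 to 0.13), or 0.03 with library totals. Aen read 21.8, 21.1 and 21.6 CPM and then 26.2, 21.4 and 22.7 CPM, a log2 fold change of 0.12 (interval -0.07 to 0.32). PBS replicates 1 and 3 lay above the normal libraries and replicate 2 among them. Bbc3 read 1.75, 2.01 and 2.20 CPM and then 1.97, 2.70 and 2.68 CPM, with PBS replicate 1 inside the normal range. The Bbc3 interval ran from -0.28 to 0.89 around 0.30 on the log2 scale. Eda2r read 0.717, 0.513 and 0.747 CPM and then 0.953, 1.85 and 0.703 CPM, so that its log2 fold change of 0.83 leaned on PBS replicate 2 and its interval spanned -0.15 to 1.80. Without PBS replicate 2 the Eda2r log2 fold change was 0.33.

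Sesn2, whose product restrains mTORC1 signalling under stress, was the 1 member with all PBS libraries below the normal ones. It read 34.5, 36.7 and 39.0 CPM in normal kidneys and 32.2, 24.9 and 30.8 CPM in the PBS group. Replicate 2, which was highest for Trp53inp1 and Eda2r, was lowest for Sesn2. Sesn2 had a log2 fold change of -0.33 (SE 0.19; edgeR, Benjamini-Hochberg adjusted p = 0.256), or -0.21 without PBS replicate 2. In all, 3 of 10 members were higher and 1 was lower without overlap of the groups, beside 20.3% and 20% of all genes tested.

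**Figure D2:**
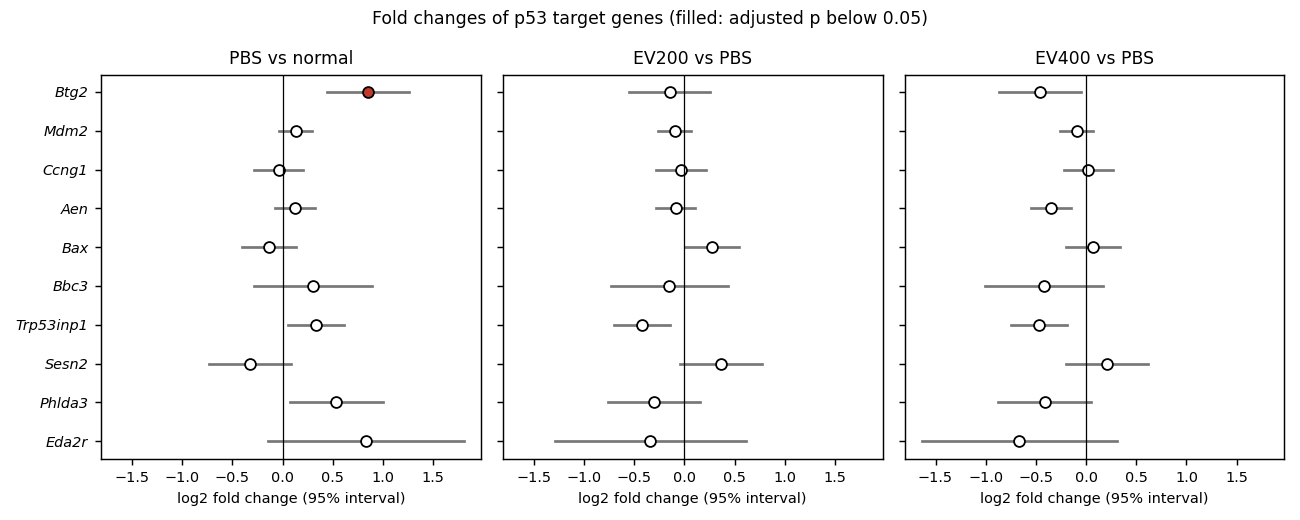
Log2 fold change (horizontal axis) of each member in the comparisons of PBS with normal and of each vesicle dose with PBS; points are edgeR estimates, lines are 95% intervals and the filled point has an adjusted p under 0.05. Btg2 at 0.85 in the first panel is the filled point, and Aen and Trp53inp1 at 400 µg have intervals below 0.

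The lower vesicle dose was compared with PBS to ask how vesicle-treated kidneys differ from saline-treated ones. No member was called in edgeR, where 0.016% of genes, 3 in all, were. By unadjusted p, 2 members lay under 0.05, 1 lower and 1 higher, beside 6.9% of all genes. With DESeq2 no member was called, and with limma-voom and quality weights 3 were (Trp53inp1, Sesn2 and Phlda3), beside 48 and 1649 genes called by these tools. Trp53inp1 was the lower one, at 43.6, 44.9 and 49.96 CPM in the EV200 group. All EV200 libraries lay below the lowest PBS value of 55.0 CPM, as for 4.94% of all genes, and within or below the normal range. The log2 fold change was -0.42 (SE 0.13; edgeR, Benjamini-Hochberg adjusted p = 0.657). Bax was the higher one, at 29.1, 23.6 and 23.8 CPM, with replicate 1 highest and overlap with the PBS group. Its log2 fold change was 0.28 (SE 0.12; edgeR, Benjamini-Hochberg adjusted p = 0.657), or 0.18 without EV200 replicate 1. That of Trp53inp1 was -0.25 without PBS replicate 2.

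EV200 replicate 3 set the spread of several members in that group. Btg2 read 13.3 and 13.1 CPM in replicates 1 and 2 and 22.2 CPM in replicate 3, the highest Btg2 level of the 12 libraries. Phlda3 read 3.13, 2.53 and 4.45 CPM, again with replicate 3 apart and near the upper PBS values. Sesn2 went the other way, at 41.6, 46.0 and 25.6 CPM. Set against PBS, log2 fold changes were -0.14 (SE 0.18) for Btg2, -0.30 (SE 0.21) for Phlda3 and 0.37 (SE 0.19) for Sesn2. Without EV200 replicate 3 they were -0.44, -0.55 and 0.58, and no member was called with any of the 12 libraries left out.

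**Figure D3:**
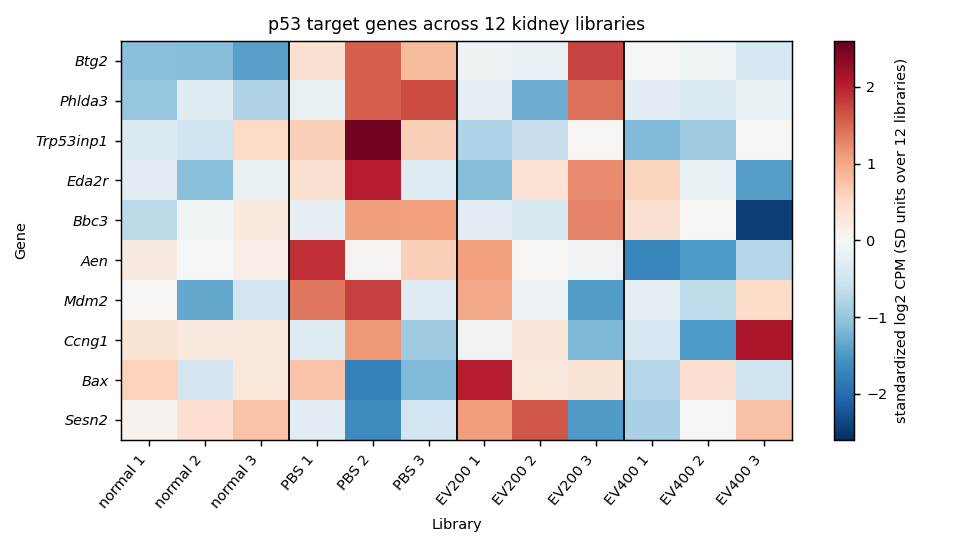
Standardized log2 CPM (colour, in SD units over 12 libraries) of each member (rows) in each library (columns), with lines between groups. PBS replicate 2 and EV200 replicate 3 are both high for Btg2, Phlda3, Eda2r and Bbc3 and low for Sesn2, and EV400 replicates 1 and 2 are low for Trp53inp1 and Aen.

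At 400 µg, 3 members lay below PBS without overlap of the libraries, and none was called in edgeR. Genes called in that comparison made up 0.0801% of those tested, 15 in all. The members Aen, Trp53inp1 and Btg2 had an unadjusted p under 0.05, all lower, beside 12.6% of all genes, and genes lower without overlap made up 13.8%. DESeq2 called Aen and Trp53inp1 (adjusted p = 0.02 and 0.0238), beside 1004 of the 18730 genes tested. With quality weights limma-voom called 4 members, Btg2, Aen, Trp53inp1 and Phlda3, beside 2731 genes. The members' median log2 fold change was -0.38, against -0.02 for all genes. With library totals it was -0.52 against -0.17, and the 9 higher and 6 lower calls became 2 and 6.

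Aen read 17.6, 17.97 and 19.5 CPM in the EV400 group, under the 21.4 to 26.2 CPM of the PBS group. It also lay under every normal and every EV200 library, so EV400 held the lowest Aen values of the series. From PBS the log2 fold change was -0.35 (SE 0.09; edgeR, Benjamini-Hochberg adjusted p = 0.127). Trp53inp1 read 41.1, 42.5 and 49.9 CPM, with a log2 fold change of -0.47 (SE 0.13; edgeR, Benjamini-Hochberg adjusted p = 0.133), or -0.30 without PBS replicate 2. Its EV400 libraries overlapped the normal ones. For Btg2 the values were 13.6, 13.3 and 12.2 CPM, between the normal and the PBS libraries without touching either. The Btg2 log2 fold change from PBS was -0.46 (SE 0.19; edgeR, Benjamini-Hochberg adjusted p = 0.186).

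For Mdm2 and Ccng1 the EV400 libraries overlapped those of the PBS group. Mdm2 read 46.8, 45.7 and 48.8 CPM and had a log2 fold change of -0.09 (interval -0.26 to 0.07). Ccng1 read 205, 187 and 256 CPM, with its highest and its lowest library of the series both in this group. The Ccng1 estimate of 0.02 became -0.11 without EV400 replicate 3. Phlda3 was tight, at 3.11, 3.07 and 3.18 CPM, with a log2 fold change of -0.41 (interval -0.88 to 0.05). Bbc3 had a log2 fold change of -0.42 and Eda2r one of -0.67, both with intervals that held 0, and EV400 replicate 3 was the lowest library of the series for each, at 1.14 and 0.440 CPM. Without EV400 replicate 3 they were -0.16 and -0.40, and without PBS replicate 2 Eda2r was -0.16. In limma-voom the sign for Eda2r turned, to 0.25. Bax read 20.8, 23.96 and 21.4 CPM and Sesn2 read 28.9, 33.8 and 39.1 CPM, each overlapping the PBS group.

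Against normal kidneys neither vesicle group had a called member in edgeR. Genes called were 13 (0.0694%) for EV200 and 0 (0%) for EV400. In the latter comparison 6.98% of genes had an unadjusted p under 0.05, 35 were called by DESeq2 and 1481 by limma-voom. Btg2 was the 1 member above every normal library in both vesicle groups, beside 11.9% and 8.28% of all genes, with log2 fold changes of 0.71 (SE 0.19; edgeR, Benjamini-Hochberg adjusted p = 0.158) and 0.39 (SE 0.19; adjusted p = 0.722). It was also the 1 member higher at an unadjusted p under 0.05 at 200 µg, beside 8.86% of all genes. DESeq2 and limma-voom each called it there, beside 491 and 1098 genes, and limma-voom called Btg2 and Aen at 400 µg. Aen at 400 µg was the 1 member below every normal library and lower at an unadjusted p under 0.05, beside 10.6% and 3.67% of all genes. It lay below normal by a log2 fold change of -0.23 (SE 0.09; edgeR, Benjamini-Hochberg adjusted p = 0.672). These comparisons share the normal libraries with each other and the vesicle libraries with those against PBS, so they are not independent.

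Between the doses no member was called, where 0.00534% of genes, 1 in all, were. DESeq2 and limma-voom also called 0 members, beside 17 and 145 genes. Aen was the member with an unadjusted p under 0.05, lower at 400 than at 200 µg by a log2 fold change of -0.27 (SE 0.09; edgeR, Benjamini-Hochberg adjusted p = 0.769), with no overlap. By the same measures 3.81% of all genes were lower and 5.57% lower without overlap. The joint test for any difference among the 4 groups called no member and 12 genes (0.0641%). Its unadjusted p was 0.00359 for Btg2, 0.0120 for Trp53inp1 and 0.0138 for Aen, so 3 of 10 members lay under 0.05 beside 19.7% of all genes. DESeq2 called 2 members in the joint test and limma-voom called 5, beside 1726 and 6634 of the 18730 genes tested. Without EV200 replicate 3 edgeR called 1 member, beside 409 genes.

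Other genes of the pathway were examined by role, as 50 genes in 6 lists of which 49 were tested. In the comparison of PBS with normal 1 of them was called higher in edgeR and none lower, beside 1.84% and 0.902% of all genes. Log2 fold changes lay above 0 for 32 of 49, beside 50.3% of all genes. Unadjusted p-values under 0.05 were found for 14 higher and 2 lower, beside 17% and 12.8% of all genes, and the median was 0.07 against 0.00 for all genes. Thbs1, which encodes the secreted matrix protein thrombospondin 1, was the one called higher. It read 31.3, 31.8 and 37.9 CPM in normal kidneys and 52.0, 83.8 and 58.5 CPM in the PBS group, with no overlap. Its fitted log2 fold change was 0.95 (SE 0.20; edgeR, Benjamini-Hochberg adjusted p = 0.0436). Leaving out any of the 8 libraries that ended the Btg2 call also ended that of Thbs1, with adjusted p from 0.0543 to 0.158. In PBS against normal DESeq2 called 2855 and limma-voom 6164 of the 18730 genes tested. The calls by these tools given below are to be read beside those counts.

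Neither the p53 gene itself, Trp53, nor its partner Mdm4 was called. Trp53 read 22.9, 26.3 and 22.5 CPM in normal kidneys and 24.5, 26.2 and 24.7 CPM in the PBS group, with a log2 fold change of 0.07 (SE 0.09). Mdm4 averaged 77.6 ± 2.82 and 77.8 ± 8.24 CPM (SD, n = 3). Of the 12 regulators none was called in edgeR. The checkpoint kinase gene Chek2 had a log2 fold change of 0.39 (edgeR, Benjamini-Hochberg adjusted p = 0.0879), and Chek1, at under 2 CPM throughout, had 0.71 (adjusted p = 0.224), or 0.34 without PBS replicate 2. DESeq2 called Chek2 (adjusted p = 0.0446), and limma-voom called Chek2 (0.0398) and Cdkn2a (0.0142). Cdkn2a, which encodes the Mdm2 inhibitor ARF and the cell cycle inhibitor p16, was at 0 counts in the 3 normal libraries and reached 0.217 and 0.234 CPM in PBS replicates 2 and 3.

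None of the 8 cell cycle targets was called in edgeR, and 7 of 8 had a log2 fold change above 0, beside 50.3% of all genes. Cdkn1a, which encodes the cell cycle inhibitor p21, read 3.99, 3.30 and 3.78 CPM in normal kidneys and 7.21, 13.3 and 7.47 CPM in the PBS group. Every PBS library was above every normal one, and replicate 2 was highest. The log2 fold change of 1.34 (SE 0.40) had an adjusted p of 0.0671 in edgeR with Benjamini-Hochberg adjustment, and 0.00926 in DESeq2. Leaving out PBS replicate 1 or EV200 replicate 3 put Cdkn1a past the threshold, at 0.048 and 0.0165. Its EV200 values were 4.35, 3.75 and 10.5 CPM, with replicate 3 apart as for Btg2, and its EV400 values were 5.88, 3.88 and 2.69 CPM. Sfn, the 14-3-3 sigma gene, had a log2 fold change of 1.09 and the damage-response gene Gadd45a one of 0.57 (edgeR, Benjamini-Hochberg adjusted p = 0.0597 and 0.1104). DESeq2 also called Sfn (adjusted p = 0.00795), and limma-voom called Cdkn1a (0.004), Sfn (0.00115) and Gadd45a (0.0312). With only the groups compared, the edgeR fit called Cdkn1a (adjusted p = 0.0275) and Sfn (0.0158), beside 1449 of 18026 genes tested. Without PBS replicate 1 the Gadd45a log2 fold change was 0.32.

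**Figure D4:**
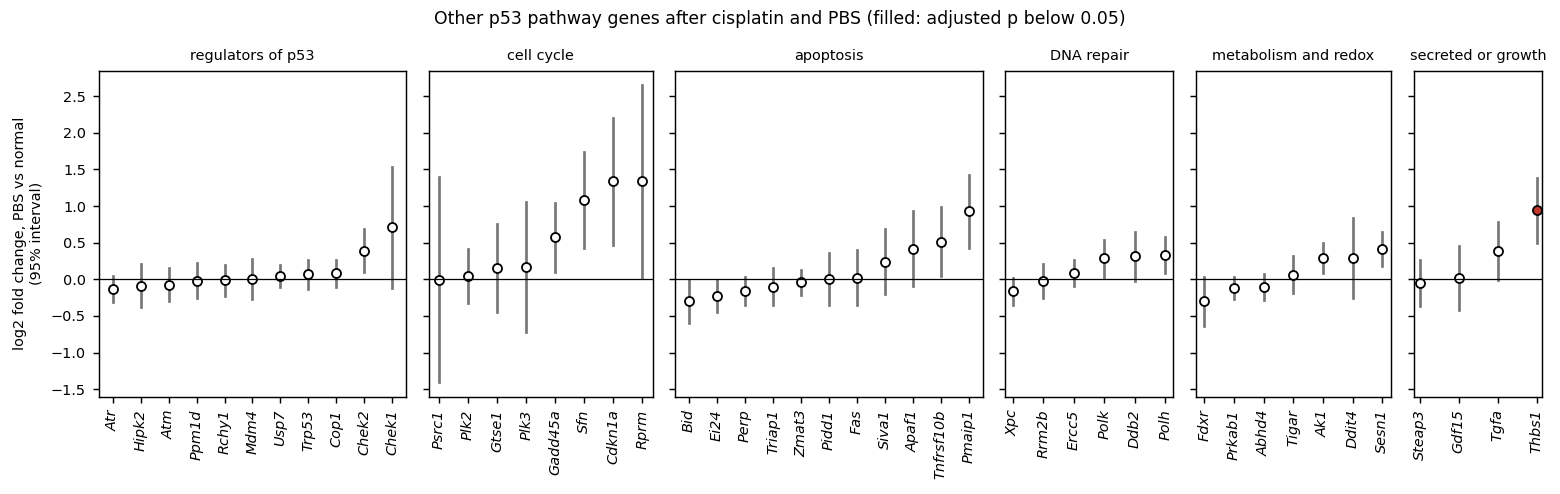
Log2 fold change between PBS and normal (vertical axis) of other p53 pathway genes, Cdkn2a and 1 more not drawn, in 6 role lists (horizontal axis); points are edgeR estimates, lines are 95% intervals and the filled point has an adjusted p under 0.05. Thbs1 at 0.95 is the filled point, and the regulators lie near 0 apart from Chek2 and Chek1.

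Of 11 further death genes none was called in edgeR. Pmaip1, which encodes the BH3-only protein NOXA, read 7.45, 7.29 and 9.07 CPM in normal kidneys and 12.1, 20.4 and 12.7 CPM in the PBS group. The groups did not overlap, and the log2 fold change was 0.93 (SE 0.23; edgeR, Benjamini-Hochberg adjusted p = 0.0518). The death receptor gene Tnfrsf10b had a log2 fold change of 0.51 and Ei24 had -0.23, with adjusted p of 0.139 and 0.159 (edgeR, Benjamini-Hochberg). DESeq2 called Pmaip1 (adjusted p = 0.00269), and limma-voom called Pmaip1 (0.00177) and Ei24 (0.0185). The edgeR fit also called Pmaip1 with a minimum of 1 CPM in 3 libraries (0.0445) and with only the groups compared (0.0408). None of 6 repair genes was called in edgeR. The translesion polymerase genes Polh and Polk had log2 fold changes of 0.33 and 0.28, and the damage recognition gene Ddb2 had 0.31, with adjusted p of 0.0914, 0.129 and 0.193 (edgeR, Benjamini-Hochberg). DESeq2 called Polh (adjusted p = 0.0448), and limma-voom called Polh (0.00875) and Ddb2 (0.0105). Without PBS replicate 2 the log2 fold changes of Polk and Ei24 were 0.14 and -0.14.

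In the metabolic list 7 of 8 genes were tested and none was called in edgeR. Sesn1, a sestrin like the member Sesn2, read 12.97, 11.9 and 13.99 CPM in normal kidneys and 15.8, 18.5 and 17.4 CPM in the PBS group. The sestrins thus differed in direction, Sesn1 at a log2 fold change of 0.42 (SE 0.11; edgeR, Benjamini-Hochberg adjusted p = 0.0555) and Sesn2 at -0.33, with neither called and the difference between them not tested. The adenylate kinase gene Ak1 had 0.29 and the ferredoxin reductase gene Fdxr had -0.30 (adjusted p = 0.0795 and 0.213; edgeR, Benjamini-Hochberg), the latter -0.19 without normal replicate 2 and -0.15 without PBS replicate 2. DESeq2 called Sesn1 (adjusted p = 0.00846) and Ak1 (0.0329), as did limma-voom (0.00176 and 0.0447). The edgeR fit called Sesn1 with a minimum of 1 CPM in 3 libraries (0.0473) and with only the groups compared (0.0474). Among 5 genes for secreted or growth-related proteins Thbs1 was called in edgeR. The growth factor gene Tgfa had 0.39. Leaving out PBS replicate 1 or EV200 replicate 3 put Sfn, Pmaip1 and Sesn1 past the threshold, with adjusted p from 0.00719 to 0.0472, and leaving out EV200 replicate 1 did so for Sfn, Pmaip1 and Sesn1 (0.0421 to 0.0496).

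Against PBS none of the 49 other pathway genes was called at either dose in edgeR. At 200 µg, 2 had an unadjusted p under 0.05, both lower, a smaller share than the 6.9% of all genes in either direction. At 400 µg, 10 were lower and 1 higher by that measure, beside 12.6% and 10.9% of all genes. Without overlap 11 of 49 were lower, beside 13.8% of all genes. Examples of these 11 had EV400 log2 fold changes of -1.17 (SE 0.40) for Cdkn1a, -0.65 (SE 0.23) for Pmaip1, -0.69 (SE 0.22) for Tnfrsf10b and -0.65 (SE 0.20) for Thbs1. Their adjusted p ranged from 0.151 to 0.162 (edgeR, Benjamini-Hochberg).

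Markers of other cell types were summed per library. Over 8 macrophage genes, led by Lyz2 and Csf1r, the summed level was 137 to 161 CPM in normal kidneys, 337 to 652 in PBS, 197 to 581 in EV200 and 133 to 285 in EV400. Of these genes 4 were called higher in PBS against normal, beside 1.84% of all genes. All 8 of 8 had a log2 fold change above 0, beside 50.3% of all genes. The highest sums were those of PBS replicate 2 and EV200 replicate 3, at 652 and 581 CPM, which were also the highest libraries for Btg2 and Cdkn1a. Over 5 fibroblast genes, led by Col3a1 and Pdgfra, the sum was 79.2 to 80.1 CPM in normal, 132 to 420 in PBS, 84.0 to 248 in EV200 and 53.3 to 132 in EV400, with 1 gene called, higher, in PBS against normal. The 5 T cell genes, led by Cd8a and Cd4, summed to 2.77 to 5.24 CPM in normal and 6.42 to 10.6 CPM in PBS, with 1 called, higher. The 5 urothelial genes, led by Upk1a and Upk3a, summed to 1.26 to 2.53 and 4.66 to 12.8 CPM, with none called. Of the 5 adipocyte genes 2 were tested and none was called, and without PBS replicate 3 (87.9 CPM) their sum stayed between 22.9 and 34.4 CPM, nearly all of it Fabp4. Whether these cells contributed to the levels of the p53 targets was not tested.

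Other stress programmes, known to act on Btg2 or Sesn2, were summed as well. The 7 immediate early genes, led by Dusp1 and Jun, summed to 65.0 to 91.9 CPM in normal and 77.5 to 89.2 CPM in PBS, with none called in edgeR. The sum hides opposite directions. Dusp1 read 36.3, 43.0 and 30.7 CPM in normal and 24.2, 19.4 and 20.4 CPM in PBS, whereas 6 of 7 genes had a log2 fold change above 0, with a median of 0.51. Fos, Jun and Junb were higher without overlap, beside 20.3% of all genes. Jun read 14.7 to 15.8 CPM in normal and 21.4 to 32.1 CPM in PBS, and like Btg2 it was highest in PBS replicate 2 and EV200 replicate 3. In EV400 against PBS 5 of 7 were lower without overlap, beside 13.8% of all genes. Btg2 carries the cyclic AMP response element TGACGTCA in its promoter window, shown with its surroundings and the element in capitals.
Btg2: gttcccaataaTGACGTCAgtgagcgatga
The stretch lies at chr1:134079303-134079332 on the minus strand, the element from -166 to -159 relative to the start. No window of the other 8 members with a promoter sequence holds these letters, which occur in 1.79% of all windows. The element reads the same on both strands. The 7 integrated stress response genes summed to 106 to 113 CPM in normal and 119 to 127 CPM in PBS, also with none called in edgeR. Atf4 and Psat1 make up most of that sum. Of the 7, 5 had a log2 fold change above 0 and 2 below, where 50.3% of all genes lay above 0. Their median was 0.08 and the lowest value -0.69. Chac1 averaged 0.983 CPM in normal and 0.613 CPM in PBS. Only 1 of 7 was higher without overlap, beside 20.3% of all genes. Atf3, an induced transcription factor gene of the list, read 0.737, 0.924 and 0.851 CPM in normal and 1.89, 4.03 and 2.31 CPM in PBS, without overlap. It had the largest log2 fold change of the 7, 1.71 (SE 0.50; edgeR, Benjamini-Hochberg adjusted p = 0.0658), and was likewise highest in PBS replicate 2 and EV200 replicate 3. Fos, Junb, Atf3 and Chac1 were named after their values were seen. What these programmes contributed to Btg2 or Sesn2 was not tested.

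The genes whose pattern over the 12 libraries lay nearest to the members' mean were ranked by the root mean square difference of standardized log2 CPM among 15324 genes. Dnajb4, a heat shock co-chaperone gene, was nearest at 0.308, followed by Noxred1 at 0.375, Zbed4 at 0.388, Rbm12b1 at 0.389, Glrb at 0.401, Plod2 at 0.407, Terf1 at 0.413 and Ajuba at 0.421. The members themselves lay farther from their own mean, from 0.603 for Trp53inp1 to 1.58 for Sesn2. Dnajb4 averaged 20.8 ± 0.976 CPM in normal and 30.3 ± 6.47 CPM in PBS (SD, n = 3). Plod2, which encodes a collagen lysyl hydroxylase, averaged 29.6 ± 0.180 and 43.2 ± 9.41 CPM. Since these genes were chosen for their pattern over the same libraries, the values are a description and no test is given.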

How the data were processed

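A single table deposited by the authors gives each gene a whole-number count of reads, a TPM and an FPKM in each of 12 libraries. Counts were tested, and the 12 deposited FPKM columns were not used. The authors' TPM values served to order members per length and to give untested ratios of means for Mdm2 and Ccng1. Libraries were made with a stranded mRNA kit and read as pairs of 101 bases, as the labels' protocols state. Per the submitters' processing notes, the tools were HISAT2 2.1.0, StringTie 2.1.3b, Trimmomatic 0.38 and FastQC 0.11.7, and the builds mm10 and GRCm38. How counts were assigned, with which strand setting and annotation, is not given in the sources used.

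All 12 libraries entered 1 edgeR 4.0.16 quasi-likelihood fit in R 4.3.3, with TMM factors, the default expression filter by group (18730 genes left of 45777) and 8 residual degrees of freedom. P-values were Benjamini-Hochberg adjusted over all genes tested, per comparison, and called under 0.05. Standard errors are the log2 fold change over the square root of F, and intervals are 95%. Log2 CPM used a prior count of 2. Alternatives were DESeq2 1.42.0 and its size factors, limma-voom (limma 3.58.1) with quality weights, other filters, a replicate block, only the groups compared, and each library left out. Levels are CPM with TMM factors. Library totals as scaling, and leaving out PBS replicate 3, EV200 replicate 3 and EV400 replicate 3 together, were chosen after seeing the data. The members and gene lists were chosen with earlier results of these data known. All members are named. From the pathway lists, called genes, the 3 smallest p-values per list for PBS against normal, and Trp53, Mdm4 and Cdkn1a are named, except 1 gene that is not reported here by name. Adipoq was named after its values were seen.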

Additional observations from a re-analysis of the deposited data

How the results depend on the processing

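Limits: with groups of 3, many calls moved when 1 library or the tool changed. The cause was not tested. Depth limits Eda2r and Bbc3 most, since they had as few as 19 and 49 counts in a library.

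Genes called for PBS against normal numbered 514, and 299 without an expression filter, 819 at a minimum of 1 CPM in 3 libraries, 2855 in DESeq2, 6164 in limma-voom, 0 with the replicate block, 1449 with only the groups compared and 0 to 2405 with 1 library left out. Members called there were 2 in limma-voom, 0 with the replicate block (Btg2 adjusted p = 0.0891) and 0 to 1 with 1 library left out. Replicate numbers were treated as names only. Deviations from group means correlated at -0.39 to 0.34 between same-numbered libraries and at -0.46 to 0.49 between differently numbered ones. Such overlapping ranges cannot decide whether the numbers pair libraries, and the block uses up degrees of freedom. For EV200 against PBS the 3 genes became 48 in DESeq2, 1649 in limma-voom, 0 with the block, 0 with only these groups and 1 to 6 with 1 library left out, with 3 members in limma-voom. For EV400 against PBS the 15 genes became 1004 in DESeq2, 2731 in limma-voom, 2 with only these groups, 8 with library totals and 0 to 65 with 1 library left out, with 2 members in DESeq2 and 4 in limma-voom. For EV200 against normal the 13 genes became 26 with the minimum of 1 CPM, 491 in DESeq2, 1098 in limma-voom, 6 with the block, 28 with only these groups, 27 with library totals and 2 to 90 with 1 library left out, with 1 member in DESeq2 and 1 in limma-voom. For EV400 against normal the 0 genes became 35 in DESeq2 and 1481 in limma-voom, with 2 members in limma-voom. Between the doses the 1 gene became 0 with the minimum of 1 CPM, 17 in DESeq2, 145 in limma-voom, 0 with the block and 0 with only these groups. The joint test's 12 genes became 1726 in DESeq2, 6634 in limma-voom, 0 with the block and 1 to 409 with 1 library left out, with 2 members in DESeq2, 5 in limma-voom and 0 to 1 with 1 library left out. Leaving out PBS replicate 3, EV200 replicate 3 and EV400 replicate 3 together gave 2319 genes for PBS against normal, 9 for EV200 against PBS, 1 for EV200 against normal, 6 for EV400 against normal, 0 between the doses and 307 in the joint test, with 1 member in the joint test and Btg2 called against normal (adjusted p = 0.00715). In limma-voom the libraries weighed from 0.163 (PBS replicate 2) to 3.47 (PBS replicate 3).

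Signs reversed for uncalled genes, among them Eda2r, at -0.67 for EV400 against PBS. With 1 library left out, Ccng1 ranged from -0.11 to 0.015 for PBS against normal, from -0.089 to 0.046 for EV200 against PBS and from -0.11 to 0.12 for EV400 against PBS. Under the same omissions Mdm4 ranged from -0.069 to 0.071 for PBS against normal, Aen from -0.14 to 0.0028 and Eda2r from -0.70 to 0.17 for EV200 against PBS, and Bax from -0.017 to 0.21 for EV400 against PBS. Without the 3 libraries together Ccng1 was 0.016 for PBS against normal and -0.17 for EV400 against PBS. With library totals Ccng1 was 0.13 and -0.14 and Bax 0.026 and -0.073 in these comparisons. In limma-voom Mdm4 was -0.027 for PBS against normal, Ccng1 0.11 and Eda2r 0.18 for EV200 against PBS, and Sesn2 -0.017 and Eda2r 0.25 for EV400 against PBS. With the replicate block Mdm4 was -0.00055 for PBS against normal. Of 1044 values of single genes under the alternatives, 947 kept direction and side of the threshold, 57 passed it, 18 no longer passed it and 22 reversed.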
